A study of Mus musculus with 6 samples.

Results

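The core autophagy genes examined here were Ulk1, Becn1, Atg5, Atg7, Map1lc3a, Map1lc3b, Gabarapl1, Nbr1, Lamp2 and Tfeb, 10 of the 28162 genes in the deposited table. These 10 genes were taken by symbol, without a cut on any measured value, though with earlier results of these data known. They were measured by polyadenylated RNA sequencing of ventral lumbar spinal cord from SOD1G93A mice, which carry a mutant human superoxide dismutase 1 transgene and model amyotrophic lateral sclerosis. One group, of 3 libraries titled as biological replicates, came from mice given AAV-NDNF, an adeno-associated virus carrying neuron-derived neurotrophic factor, and the other, also of 3, from mice given AAV-GFP, which carries green fluorescent protein. Whether a library is 1 animal or a pool is not stated. The mice of both groups carried the SOD1G93A transgene and had received a virus by the intrathecal route on postnatal day 74, with tissue taken on day 104. The sources used here do not give the serotype, the promoter or the cells transduced. No uninjected and no wild-type cord was analysed here, so the values say how the groups compare with each other and not how either compares with a healthy cord.

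Macroautophagy wraps cytoplasm, protein aggregates and organelles in a double membrane, the autophagosome, and delivers them to the lysosome. The ULK1 kinase starts the process, the beclin 1 lipid kinase complex marks the membrane, a pair of ubiquitin-like conjugation reactions joins ATG8 proteins such as LC3 to lipid, cargo receptors bind both cargo and ATG8 proteins, and the lysosome digests the content. Motor neurons are long-lived cells that rely on this route to clear misfolded protein, and mutant SOD1 is among the proteins it degrades. The activity of the pathway is set largely by phosphorylation, lipidation and turnover of the proteins, none of which read counts measure.

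Sequences of the ATG8 members and of a pair of promoters are shown first. The marked codon is that of the glycine on which the conjugation enzymes act. The marked promoter letters are the core of the element that TFEB recognises, and not the whole of it. The first set gives the last coding bases of the ATG8 members, from GENCODE M21 transcripts, 5′ to 3′, with the codon of the glycine that is joined to phosphatidylethanolamine in capitals.
Map1lc3a: gtctacgcctcccaagaaaccttcGGCttc
Map1lc3b: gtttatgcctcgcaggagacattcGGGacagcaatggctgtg
Gabarapl1: gcctacagtgatgaaagtgtctatGGAaaa
One codon follows the glycine in Map1lc3a and Gabarapl1, and 5 follow it in Map1lc3b. ATG4 proteases remove these residues, after which ATG7 activates the exposed glycine. The coding sequences of Map1lc3a and Map1lc3b were identical at 77.6% of 362 aligned bases, with no identical run longer than 15 bases. Map1lc3a and Gabarapl1 were identical at 57.1% of 340 aligned bases. None of the 50-base stretches of the longest coding Map1lc3a or Map1lc3b transcript occurred in a transcript of another GENCODE M21 gene.

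The second set shows the letters CACGTG, the core of the element that TFEB recognises, where they occur in the RefSeq promoter windows of members (250 bases before to 50 bases after the start, GRCm38.p6). These letters read the same on both strands, no other motif was searched, and the motif is in capitals.
Atg5, chr10:44268298-44268357, plus strand: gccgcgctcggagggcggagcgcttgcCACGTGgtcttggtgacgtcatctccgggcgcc
Atg7, chr6:114670937-114670996, plus strand: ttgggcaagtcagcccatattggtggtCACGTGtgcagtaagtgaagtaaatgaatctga
The motif was found in 2 of the 11 windows of the 8 members with a window, and 7.15% of the 32851 windows of all genes hold it. A match of letters is a description and shows no binding. The Atg7 window belongs to a RefSeq start inside the GENCODE M21 gene.

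The libraries held between 15335789 and 20060987 recovered reads. Every member was well measured, with 329 to 10170 reads per library. At a member's mean reads over the 6 libraries, counting error alone came to 1.07% to 4.72% of its level. The delivered gene checks the labels. Ndnf had 5286, 7077 and 674 normalized counts in AAV-NDNF libraries 1 to 3, against 171, 128 and 158 in AAV-GFP libraries 1 to 3, so the groups did not overlap and AAV-NDNF replicate 3 had the lowest level of the delivered gene among the treated libraries. Markers of neurons, motor neurons, astrocytes, oligodendrocytes and microglia were detected, and no gene of those lists was at 0 throughout the 6 libraries. AAV-GFP replicate 2 and AAV-NDNF replicate 3 stood apart, at 40.3 and -52.0 on the first principal component, where the others lay between -1.76 and 16.5. AAV-GFP replicate 2 had the lowest marker scores of dorsal horn neurons (-1.72, others -0.28 to 0.93) and of neurons in general (-0.34, others -0.010 to 0.14), a score being the mean log2 deviation of a list's genes from their average over the 6 libraries.

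No member passed the test between the groups. Throughout, a normalized count is a gene's read count after the authors' division by a size factor per library. Fold changes set AAV-NDNF over AAV-GFP as a difference of log2(normalized count + 1), and the test is two-sided limma over the 17480 genes that reached 10 normalized counts in 3 or more libraries. All 10 members passed that filter. At a Benjamini-Hochberg adjusted p under 0.05, limma called 0 of the 10 members, and it called 0% of all genes tested. At an unadjusted p under 0.05 the count was again 0 of 10, where 4.68% of all genes tested passed. The edgeR quasi-likelihood test and DESeq2 on recovered reads each called 0 of 10 as well. Limma did not call the delivered gene Ndnf either, at a log2 fold change of 4.27 (unadjusted p = 0.0019, adjusted p = 0.53). For Ndnf, edgeR gave an adjusted p of 0.461, while DESeq2 called it (adjusted p = 7.65e-05). A gene can thus differ strongly between these groups and go uncalled by limma. At an unadjusted p under 0.05 edgeR passed 0 of 10 members and 4.6% of all genes tested, and DESeq2 called 0.315% of all genes tested after adjustment. The groups overlapped at all 10 members, whereas they did not overlap at 9.75% of all genes tested, 4.26% being higher and 5.5% lower after AAV-NDNF. Of the 10 fold changes, 5 were below 0, as were 49.9% of all genes tested, and the median was 0.0065 beside 0.00083 over all genes tested.

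**Figure D1:**
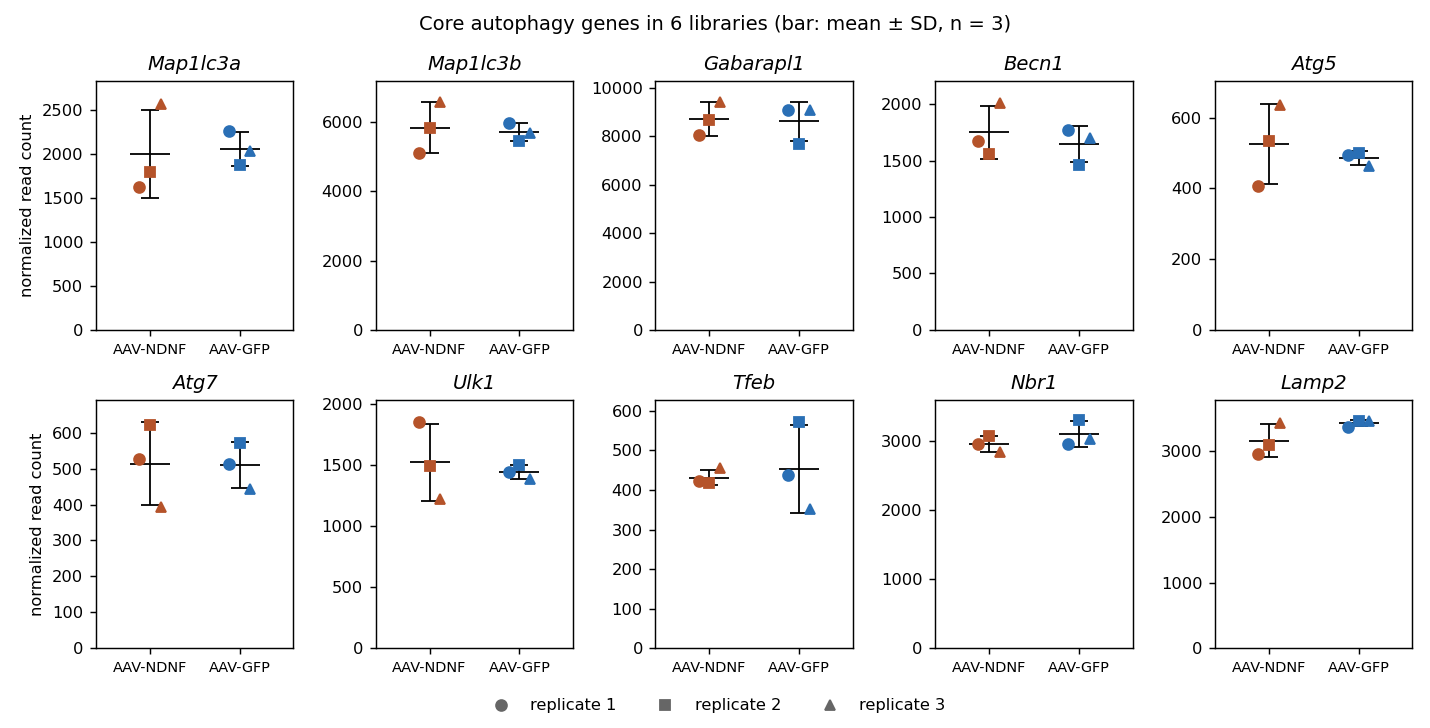
Normalized read counts (y axis, from 0) of the 10 genes in the 3 AAV-NDNF and 3 AAV-GFP libraries, with a marker shape for each replicate number and a bar for the mean ± SD. The groups overlap in every panel; Lamp2 comes nearest to separating, with only AAV-NDNF replicate 3, at 3434, reaching the AAV-GFP range.

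The limma intervals describe the size of the differences, under a variance that limma draws toward that of genes at a similar level. The 95% intervals of the fold changes of all 10 members lay within 1.5-fold in either direction, from 0.745-fold at the low end for Map1lc3a to 1.37-fold at the high end for Atg5. Intervals inside that limit were found for 9653 of the 17480 genes tested. Among the tested genes within the members' range of mean level, the count was 6602 of 7197. Most genes at such levels thus met the limit too. The members' median within-group SD on the log2 scale was 0.193, against 0.153 for those genes. Intervals from a gene's own spread alone were not computed. They would be wider for Map1lc3a, Atg7, Tfeb and Atg5 (within-group SD 0.26, 0.27, 0.25 and 0.23), whose place inside the limit thus relies on that variance. A p above the threshold does not show that the levels were equal.

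**Figure D2:**
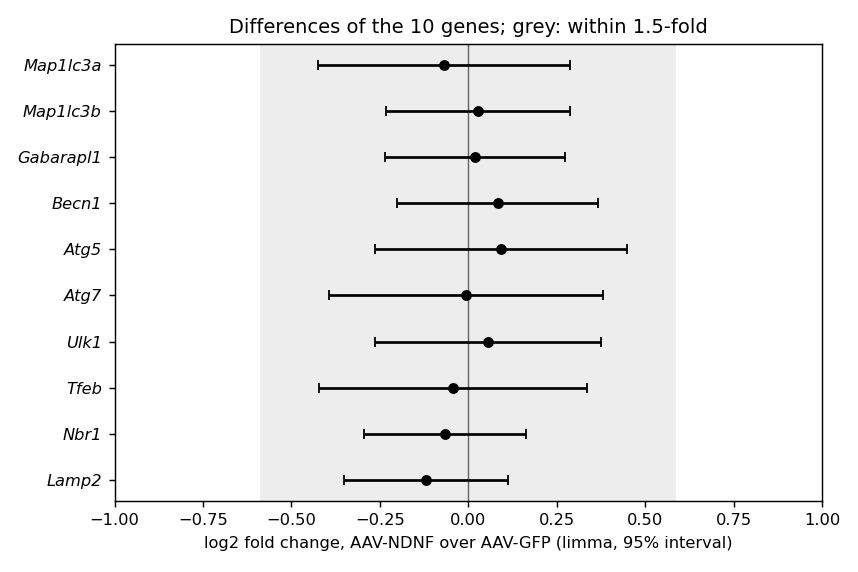
Log2 fold change of each gene, AAV-NDNF over AAV-GFP, with the 95% interval from limma (n = 3 libraries a group). All 10 intervals cross 0 and stay inside the grey band that marks 1.5-fold; the lowest estimate is -0.12 for Lamp2 and the highest 0.093 for Atg5.

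At the initiation step, Ulk1 encodes the kinase that receives signals from nutrient and energy sensors (chromosome 5, 110784488 to 110810097, minus strand, mm10). Ulk1 had 1854, 1491 and 1224 normalized counts in AAV-NDNF libraries 1 to 3, against 1446, 1502 and 1387 in AAV-GFP libraries 1 to 3. The AAV-NDNF libraries held both the highest and the lowest value, and the control libraries lay between them. The log2 fold change was 0.055 (SE 0.15, limma unadjusted p = 0.71). Becn1 encodes beclin 1, the scaffold of the class III phosphatidylinositol 3-kinase complex (chromosome 11, 101285952 to 101302286, minus strand). Becn1 stood at 1674, 1559.8 and 2014 normalized counts in AAV-NDNF libraries, against 1776, 1465 and 1702 in AAV-GFP libraries. Replicate 3 was the highest after AAV-NDNF and replicate 2 the lowest among controls, and the log2 fold change was 0.083 (SE 0.13, limma unadjusted p = 0.53). Becn1 is uncertain in one respect: 43.9% of its annotated exon bases overlap exons of Cntd1 on the opposite strand, the sources used here give no strand setting for the counting, and reads of the pair may not be told apart. Cntd1 itself was 671 ± 55.5 normalized counts after AAV-NDNF and 663 ± 48.0 in controls (SD, n = 3 each).

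At the conjugation step, Atg7 encodes the E1-like enzyme that activates both ATG12 and the ATG8 proteins (chromosome 6, 114643097 to 114860614, plus strand). Atg7 had 527, 622 and 392 normalized counts in AAV-NDNF libraries, against 512, 572 and 444 in AAV-GFP libraries. In both groups replicate 2 was highest and replicate 3 lowest, and the group means were 513 ± 115 after AAV-NDNF and 509 ± 63.7 in controls (SD, n = 3 each). The log2 fold change, a difference of mean logs, was -0.0059 (SE 0.18), opposite in sign to the difference of these means and the nearest to 0 of the 10. Atg5 encodes the protein that ATG12 is joined to, and the pair acts as the E3-like enzyme of ATG8 lipidation (chromosome 10, 44268358 to 44364291, plus strand). Atg5 had 408, 534 and 635 normalized counts in AAV-NDNF libraries, against 494, 499 and 462 in AAV-GFP libraries. The treated libraries spread on both sides of the controls, by 21.7% of their mean (coefficient of variation) after AAV-NDNF and 4.09% in controls. Its log2 fold change of 0.093 (SE 0.16, limma unadjusted p = 0.58) was the highest of the 10.

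The ATG8 proteins coat the growing membrane and hold the cargo receptors. Map1lc3a, encoding LC3A (chromosome 2, 155276297 to 155278073, plus strand), had 1625, 1792 and 2562 normalized counts in AAV-NDNF libraries, against 2259.5, 1873 and 2033 in AAV-GFP libraries. AAV-NDNF libraries 1 and 2 lay below all controls and library 3 above all controls, so the treated libraries varied by 25.1% of their mean, the widest of any member in either group, against 9.44% in controls. The log2 fold change was -0.069 (SE 0.16, limma unadjusted p = 0.68). Map1lc3b encodes LC3B, the form most used as a marker of autophagosomes (chromosome 8, 121590361 to 121598760, plus strand). Map1lc3b stood at 5101, 5834 and 6578 normalized counts in AAV-NDNF libraries, against 5975, 5458 and 5676 in AAV-GFP libraries, with the treated libraries again on both sides of the controls. Its log2 fold change was 0.027 (SE 0.12). Gabarapl1, of the GABARAP branch (chromosome 6, 129533160 to 129542346, plus strand), had 8054, 8693 and 9438 normalized counts in AAV-NDNF libraries, against 9079, 7681 and 9109 in AAV-GFP libraries. The lowest Gabarapl1 library was AAV-GFP replicate 2, and the log2 fold change was 0.019 (SE 0.12). Of the annotated exon bases of Gabarapl1, 28.3% overlap 1700101I11Rik on the opposite strand, a non-coding gene at 1649 ± 121 normalized counts after AAV-NDNF and 1653 ± 137 in controls (SD, n = 3 each), so Gabarapl1 shares the uncertainty of Becn1.

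The ratio of Map1lc3a to Map1lc3b normalized counts, not scaled for length, was 0.319, 0.307 and 0.39 in AAV-NDNF libraries and 0.378, 0.343 and 0.358 in AAV-GFP libraries. Libraries 1 and 2 after AAV-NDNF were the lowest of the 6 and library 3 the highest, so this ratio too overlapped between the groups. Gabarap and Gabarapl2, the ATG8 genes on the list that are not members, were more spread after AAV-NDNF than in controls. Gabarap was 2601 ± 758 normalized counts after AAV-NDNF and 2454 ± 90.4 in controls. Gabarapl2 was 1581 ± 366 after AAV-NDNF and 1456 ± 107 in controls (SD, n = 3 each). Neither passed limma, with unadjusted p of 0.81 and 0.54.

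Nbr1 encodes a cargo receptor that binds ubiquitin and ATG8 proteins and brings aggregates to the autophagosome (chromosome 11, 101552149 to 101581951, plus strand). Nbr1 had 2945, 3072 and 2843 normalized counts in AAV-NDNF libraries, against 2959, 3305 and 3024 in AAV-GFP libraries. It was the member whose 6 libraries lay closest together, the highest being 1.16 times the lowest, and its log2 fold change was -0.067 (SE 0.10, limma unadjusted p = 0.53). Lamp2 encodes a lysosomal membrane protein needed for autophagosomes to mature, and a splice form of it is the receptor of chaperone-mediated autophagy; the table counts the gene and does not separate the forms (chromosome X, 38401357 to 38456454, minus strand). Lamp2 had 2955, 3091 and 3434 normalized counts in AAV-NDNF libraries, against 3373, 3452 and 3459 in AAV-GFP libraries. The controls agreed within 1.39% of their mean (coefficient of variation) and AAV-NDNF libraries 1 and 2 were below them, while library 3 lay among them. The log2 fold change of -0.12 (SE 0.11) had the smallest p of the 10 members, at an unadjusted 0.28 in limma and an adjusted p of 0.997. The authors' deposited table gives Lamp2 a log2 fold change of -0.12 with an unadjusted DESeq2 p of 0.303, also the smallest of the 10 there.

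Tfeb encodes the transcription factor that drives lysosome and autophagy genes when it enters the nucleus (chromosome 17, 47737030 to 47792419, plus strand). Tfeb had 424, 417 and 455 normalized counts in AAV-NDNF libraries, against 438, 571 and 351 in AAV-GFP libraries. Here the spread lay in the controls, at 24.4% of their mean against 4.66% after AAV-NDNF, and all treated libraries lay inside the control range. The log2 fold change was -0.044 (SE 0.17, limma unadjusted p = 0.81). The 2 members with the CACGTG letters printed above, Atg5 and Atg7, had log2 fold changes of 0.093, the highest of the 10, and -0.0059, the nearest to 0.

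Scaled for exon length, the members spanned a 43.3-fold range of levels over all 6 libraries. Gabarapl1 was highest at 4767 ± 373 normalized counts per kb of exon (SD, n = 6), above 99.4% of the 17201 tested genes with a length. Map1lc3a followed at 1820.2 ± 307 and Map1lc3b at 1114 ± 96.6, and the ranges of these 3 ATG8 genes did not overlap each other or any other member. Lamp2 (654 ± 42.9) and Nbr1 (579 ± 30.2) came next and overlapped each other. Becn1 (360.1 ± 40.3), Ulk1 (284 ± 39.7) and Atg5 (215 ± 32.5) formed a run in which each overlapped its neighbour. Atg7 (125 ± 20.4) and Tfeb (110.2 ± 17.9) were lowest and overlapped each other, close to the median of 102 normalized counts per kb over the tested genes. The exon length adds every basic GENCODE M21 transcript, so a gene with a long alternative form, such as Map1lc3b at 5.18 kb, is placed lower than its main transcript alone would put it.

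The spread among members was carried mostly by single libraries. AAV-NDNF replicate 3 held the highest value of Map1lc3a, Map1lc3b, Gabarapl1, Becn1 and Atg5 and the lowest of Atg7, Ulk1 and Nbr1. It was thus at an end of the range for 8 of 10 members, as it was for 52.7% of all genes tested. AAV-NDNF replicate 1 was lowest for 4 members and highest for 1 (17.7% and 17.5% of all genes tested). AAV-GFP replicate 1 was at neither end for any member, where it was at an end for 21.5% of all genes tested. Relative to each gene's mean over the 6 libraries, the members deviated in AAV-NDNF replicate 3 from -0.37 for Atg7 to 0.36 for Map1lc3a on the log2 scale. The treated group varied more than the controls for 7 of 10 members by coefficient of variation, and for 60.4% of all genes tested.

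Across the whole table, deviations of these libraries differed with exon length, taken in 4 bins of about equal gene number. In AAV-NDNF replicate 3 the median log2 deviation was 0.20 for the shortest bin (exon length under 1.84 kb) and -0.16 for the longest (over 4.725 kb). AAV-NDNF replicate 1 showed the reverse, with -0.12 for the shortest bin and 0.11 for the longest. In AAV-NDNF replicate 2 and the 3 AAV-GFP libraries these medians lay between -0.034 and 0.055. Map1lc3a and Atg5, with 1.11 and 2.35 kb of exon, were high in replicate 3 and low in replicate 1 after AAV-NDNF, and Ulk1, with 5.23 kb, was the other way round. Map1lc3b, Lamp2 and Becn1 went against or apart from the bin of their length. Map1lc3b (5.18 kb) was at -0.17 and 0.19 in AAV-NDNF replicates 1 and 3, Lamp2 (5.04 kb) at -0.15 and 0.063, and Becn1 (4.72 kb) at -0.014 and 0.25. Nbr1 (5.23 kb) stood at -0.037 and -0.088, Tfeb (4.02 kb) at -0.047 and 0.054, and Atg7 (4.09 kb) at 0.059 and -0.37. The median fold change between the groups was between -0.016 and 0.012 in all 4 length bins, and the part that length plays in the members' values was not tested.

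**Figure D3:**
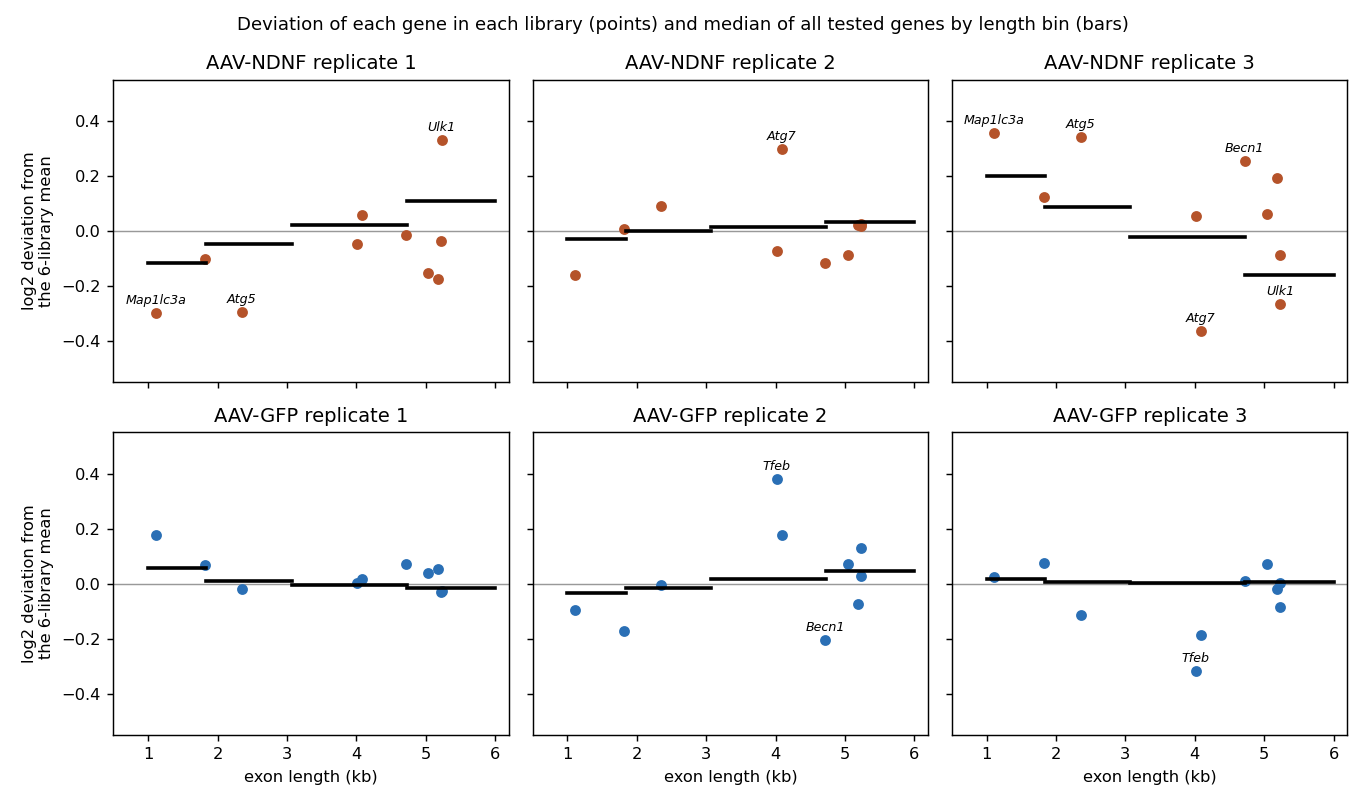
Log2 deviation of each of the 10 genes from its 6-library mean (points, y axis) against its exon length in kb (x axis), with bars for the median deviation of all tested genes in each of 4 length bins, drawn between 1 and 6 kb. The bars slope down in AAV-NDNF replicate 3, from 0.20 to -0.16, and up in AAV-NDNF replicate 1, from -0.12 to 0.11; points beyond 0.2 in either direction are named.

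The direction of 8 of the 10 members changed when a single library was left out. Without AAV-NDNF replicate 3 the fold changes of Map1lc3b, Gabarapl1, Becn1 and Atg5 lay below 0 (-0.063, -0.039, -0.023 and -0.055). The fold change of Atg7 lay above 0 there (0.18). Map1lc3a reached -0.26 with an unadjusted limma p of 0.0345, the only member to pass 0.05 in any alternative. In that fit 1150 of all 17480 genes tested passed this level. Without AAV-GFP replicate 2, Map1lc3b (-0.0043) and Gabarapl1 (-0.062) lay below 0, Atg7 (0.081) and Tfeb (0.14) lay above 0, and Becn1 stood at 0.00068. Leaving out AAV-NDNF replicate 1 put Map1lc3a at 0.064 and Ulk1 at -0.097, and leaving out AAV-GFP replicate 1 put Map1lc3a at 0.0019 and Atg7 at 0.0012. Lamp2 and Nbr1 were the members whose fold change stayed below 0 whichever library was left out, Lamp2 between -0.18 and -0.073 and Nbr1 between -0.099 and -0.019.

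The wider pathway was described through 11 lists by role, holding 112 genes beyond the 10 members, of which 111 were tested. Limma called 0 of these 111 at an adjusted p under 0.05. At an unadjusted p under 0.05, 0 were higher after AAV-NDNF (1.15% of all genes tested) and 2 were lower (3.53% of all genes tested), both lysosomal membrane proteins. The median log2 fold change of the 111 was 0.029. Laptm5, a lysosomal protein of hematopoietic cells and microglia, had 1708, 1599 and 1357 normalized counts in AAV-NDNF libraries, against 2329, 2283 and 2374 in AAV-GFP libraries. The groups did not overlap, and the log2 fold change was -0.59 (SE 0.12, limma unadjusted p = 0.000335, adjusted p = 0.351). DESeq2 on recovered reads called Laptm5 (adjusted p = 0.00496), while edgeR did not (adjusted p = 0.342). Cd63, a tetraspanin of late endosomes and lysosomes, had 1996, 2100.4 and 2645 normalized counts in AAV-NDNF libraries, against 2863, 2625 and 2732 in AAV-GFP libraries. Replicate 3 overlapped the controls, and the log2 fold change was -0.30 (SE 0.13, limma unadjusted p = 0.0374, adjusted p = 0.997).

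Microglial markers were lower by value beside Laptm5. All 10 markers of microglia and macrophages on the list had fold changes below 0, 7 of them at an unadjusted p under 0.05 (3.53% of all genes tested were lower at that level), and their summed level was 12327 to 14453 normalized counts after AAV-NDNF, against 17227 to 17729 in controls. The microglial score was -0.31, -0.28 and -0.045 in AAV-NDNF libraries 1 to 3, against 0.18 to 0.23 in controls. Among the AAV-NDNF libraries, replicate 3 had the lowest Laptm5 (1357 normalized counts) and the highest Lamp2 (3434). The part of these microglial markers in the Laptm5 and Lamp2 values was not tested. In bulk tissue fewer cells of a type and less RNA per cell cannot be told apart. Astrocyte markers were below 0 for 8 of 8, 1 of them at an unadjusted p under 0.05, with sums of 176910 to 201556 normalized counts after AAV-NDNF, against 200856 to 249595 in controls. A single control stood apart in the astrocyte score, AAV-GFP replicate 2 (0.19, others -0.13 to 0.019). Endothelial markers were below 0 for 5 of 6, 1 of them at that level, with sums of 3488 to 4807 after AAV-NDNF, against 4395 to 4884 in controls. In the endothelial score AAV-NDNF replicate 3 stood apart (-0.40, others 0.038 to 0.17). Neuronal markers summed to 175152 to 203503 normalized counts after AAV-NDNF, against 168216 to 172860 in controls. Of the 11 neuronal markers 0 were below 0, with a median log2 fold change of 0.17, and 0 passed an unadjusted p of 0.05. The neuronal score was lowest in AAV-GFP replicate 2 (-0.34, others -0.010 to 0.14). No marker on these 4 lists was at 0 throughout the 6 libraries.

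Among the lysosomal membrane list as a whole, 10 of 11 tested genes including Lamp2 had fold changes below 0, with a median of -0.11 on the log2 scale. Without single libraries 8 to 10 of the 11 were below 0, the fewest without AAV-GFP replicate 2 (median -0.079). Lamp1, a close relative of Lamp2, was 12549 normalized counts on average after AAV-NDNF and 12770.3 in controls (log2 fold change -0.025). The lysosomal proton pump, which acidifies the lumen, had values on the other side of 0 without any gene passing: 13 of 16 tested subunits and accessory proteins had fold changes above 0, with a median of 0.12. AAV-GFP replicate 2, the library low in neuronal and dorsal horn markers, was the lowest of the 6 for 8 of these 16 genes, and AAV-NDNF replicate 1 for 6. Over all genes tested they were the lowest for 20.2% and 17.7%. Without AAV-GFP replicate 2 the count above 0 was 11 and the median 0.065, and without AAV-NDNF replicate 3 they were 10 and 0.031. Without AAV-NDNF replicate 1 they were 14 and 0.22, with 4 genes at an unadjusted limma p under 0.05. In that fit 1535 of all 17480 genes tested passed this level. The part of the neuronal markers in these values was not tested. Atp6v1g2 was 4734 ± 521 normalized counts after AAV-NDNF and 3978 ± 627 in controls (limma unadjusted p = 0.093), whereas Atp6v0e was 581 ± 69.7 after AAV-NDNF and 697 ± 15.7 in controls (unadjusted p = 0.058; SD, n = 3 each).

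The upstream lists held 0 genes past an unadjusted p of 0.05. The initiation complex had a median log2 fold change of 0.055 over 5 genes, and the class III kinase complexes -0.10 over 9. Rb1cc1, the scaffold FIP200 of the ULK complex, was 1537 ± 123 normalized counts after AAV-NDNF and 1413 ± 74.8 in controls. Atg101, its stabilising subunit, was 271 ± 38.8 after AAV-NDNF and 236 ± 34.2 in controls. In the lipid kinase complexes, Atg14, which directs the kinase to the site of autophagosome formation, was 280.1 ± 25.3 after AAV-NDNF and 329 ± 45.9 in controls, and Nrbf2 was 299.96 ± 61.2 after AAV-NDNF and 343 ± 58.4 in controls (SD, n = 3 each). The unadjusted limma p of these 4 genes were 0.19 or above.

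The membrane and conjugation lists were likewise without a gene past an unadjusted p of 0.05. For lipid supply through ATG9, ATG2 and WIPI proteins the median log2 fold change was 0.018 over 10 genes, with Wipi1 at 684 ± 43.6 normalized counts after AAV-NDNF and 765 ± 134.9 in controls. Atg2b, a lipid transfer protein, was 974 ± 228 after AAV-NDNF and 1033 ± 42.4 in controls. The conjugation enzymes had a median of 0.033 over 11 genes and the ATG8 family 0.027 over 5. Atg16l2 was 268 ± 31.3 normalized counts after AAV-NDNF and 324 ± 13.6 in controls, without overlap, and Atg10, the E2-like enzyme for ATG12, was 188 ± 32.2 after AAV-NDNF and 147 ± 12.9 in controls (SD, n = 3 each). Their unadjusted limma p were 0.088 and 0.10.

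Downstream of conjugation, 0 genes of the cargo receptor and fusion lists passed an unadjusted p of 0.05. The median log2 fold change was 0.039 over 13 of 14 cargo receptors and 0.027 over 14 fusion factors. The mitophagy receptor Bnip3 was 1713 ± 315 normalized counts after AAV-NDNF and 1460.3 ± 196 in controls, and Fundc1, another mitophagy receptor, was 1630.1 ± 279 after AAV-NDNF and 1420.3 ± 162 in controls. Both remained within the spread, with unadjusted limma p of 0.17 and 0.21. Vps41, a subunit of the HOPS tethering complex, was 3875 ± 365 after AAV-NDNF and 3436 ± 194 in controls, and the fusion protein Vamp8 was 147 ± 55.7 after AAV-NDNF and 168 ± 9.96 in controls (SD, n = 3 each).

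The control layer of transcription factors and nutrient sensors also held 0 genes past an unadjusted p of 0.05. The transcription factors had a median log2 fold change of -0.10 over 6 genes. Tfe3, a close relative of Tfeb, was 696 ± 58.0 normalized counts after AAV-NDNF and 775 ± 54.2 in controls, and Foxo3 was 1452 ± 188 after AAV-NDNF and 1587 ± 107 in controls. The mTORC1 and AMPK inputs stood at a median of 0.061 over 21 genes. Rragb, a small GTPase that recruits mTORC1 to the lysosome, was 1865 ± 244 after AAV-NDNF and 1538 ± 209.8 in controls (unadjusted p = 0.068), and Rheb, the GTPase that activates mTORC1, was 1463 ± 386 after AAV-NDNF and 1266 ± 117 in controls (SD, n = 3 each).

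**Figure D4:**
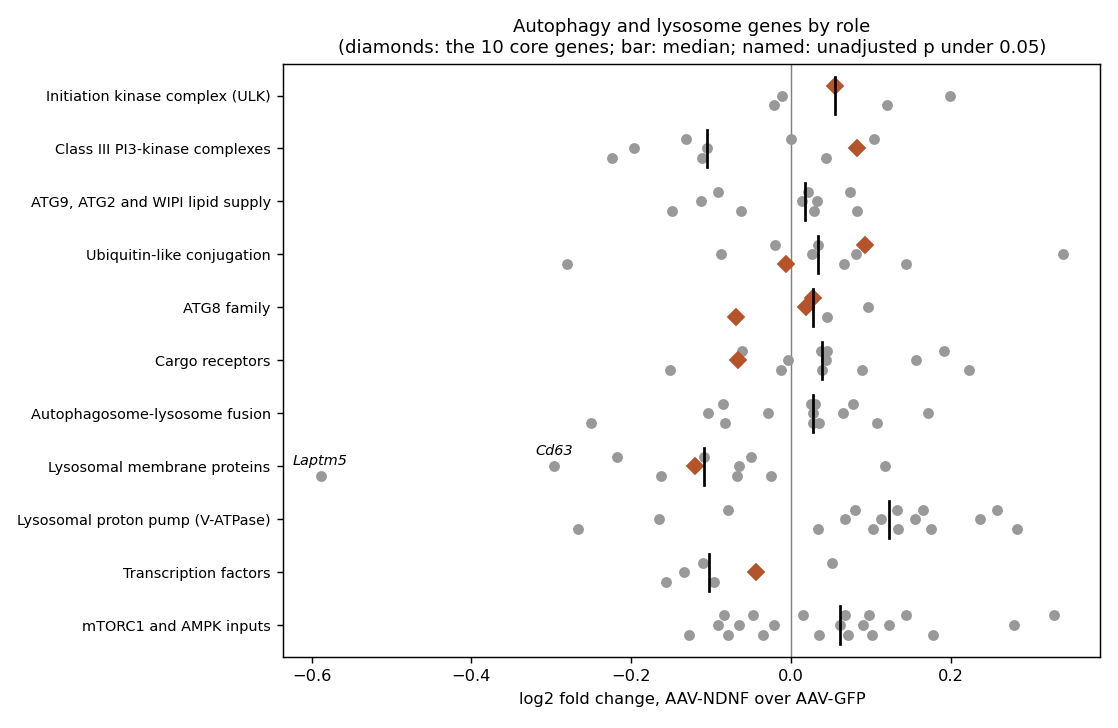
Log2 fold change, AAV-NDNF over AAV-GFP (x axis), of the tested genes of 11 lists by role (rows), with diamonds for the 10 core genes, grey circles for other genes and a bar for each list's median. The core genes sit between -0.12 and 0.093; Laptm5 at -0.59 and Cd63 at -0.30 are the genes with an unadjusted p under 0.05.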

How the data were processed

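Polyadenylated RNA of 6 libraries (3 AAV-NDNF, 3 AAV-GFP, biological replicates by their titles) was sequenced. Reads were processed with cutadapt, HISAT2, HTSeq and DESeq2 on mm10, per the submitters' processing notes; versions, annotation and strand setting are not given in the sources used here. The deposited per-sample columns hold a normalized signal, which is a count divided by the authors' size factor for that library (per the file headers and the values). All values (100%, within 0.001 of a read) were whole multiples of 1 read, so reads were recovered. Columns of log2 fold changes, a Wald score, p-values and adjusted p-values come from the authors' DESeq2 run, per the file headers.

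The main test was limma (trend and robust options) after taking log2 with a pseudocount of 1, which understates changes of low genes. The filter was 10 normalized counts in 3 or more libraries (17480 genes), and Benjamini-Hochberg adjustment ran over all of them. Alternatives were TMM and upper quartile scaling, pseudocounts of 0.5 and 5, no filter, edgeR and DESeq2 on recovered reads, a replicate block, and leaving out each library. The scripts were tested on simulated data. No 2 libraries agreed within counting noise. The members, the lists and the rule for named genes (all members, Ndnf, and per list the 2 other genes with the smallest p) were chosen with earlier results of these data known; Lamp1, Cntd1 and 1700101I11Rik were named beyond that rule. Positions and exon lengths are from GENCODE M21 (mm10), and promoter sequences from RefSeq (GRCm38.p6). Software comprised limma 3.58.1, DESeq2 1.42.0 and edgeR 4.0.16 under R 4.3.3, with Biopython 1.88 and matplotlib 3.10.9 under Python 3.11.15.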

Additional observations from a re-analysis of the deposited data

How the results depend on the processing

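The count of members called was 0 under all 14 alternatives, and the median fold change of the members stayed between -0.048 and 0.029 on the log2 scale. Members at an unadjusted p under 0.05 numbered 0 to 1 without single libraries and 0 otherwise. Over all genes, limma called 0 genes in the main test and 3 without the filter on low values, DESeq2 called 55, the fit with a replicate block called 6, and leaving out single libraries gave 0 to 43 (43 without AAV-GFP replicate 2, 11 without AAV-NDNF replicate 3, 1 without AAV-NDNF replicate 1). Whether replicate numbers pair libraries across groups was checked on deviations from the group means. Same-numbered libraries correlated at -0.09, 0.048 and 0.08, and they did not each correlate best with their own number. The main test therefore used no pairing, but with 3 libraries a group this check cannot settle whether one exists. Fold changes of members kept their sign in 125 of 140 recalculations. That count includes the replicate block and the fit without the filter, which return the main fold changes of the members and could not change a sign. Apart from Atg7, every change of sign came from leaving out a library. The sign of Atg7 turned with edgeR (0.0060) and DESeq2 (0.012), both on the log2 scale. Without single libraries, log2 fold changes ranged from -0.26 to 0.064 for Map1lc3a, -0.063 to 0.12 for Map1lc3b, -0.062 to 0.075 for Gabarapl1, -0.023 to 0.16 for Becn1, -0.055 to 0.26 for Atg5, -0.16 to 0.18 for Atg7, -0.097 to 0.20 for Ulk1 and -0.21 to 0.14 for Tfeb; the cause was not tested. Leaving out each library was also applied to the lysosomal membrane and proton pump lists, an alternative chosen after seeing the data. Depth limits a member's level to within 1.07% to 4.72% by counting error alone, at its mean reads over the 6 libraries.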
